A study of Macaca mulatta with 11 samples.

Results

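The newborn arrays of a series on rhesus monkey marrow cells were compared with its gestation day 120 arrays. Both stages carry the word Fetal in the sample titles, and the source names tell them apart: arrays 1 and 2 of that title came from donors at gestation day 120 (here GD120 1 and GD120 2), and arrays 3 and 4 came from newborn donors (here newborn 1 and newborn 2). These 4 arrays, 2 per stage, were taken by that rule from 11 arrays in all. Each array measured total RNA of 1 culture of mesenchymal stem cells from the bone marrow of Macaca mulatta, on an oligonucleotide array annotated with human genes. The labels name no treatment, transgene or strain, and the donors at gestation day 120 and the newborn donors were handled alike by the protocols given: long bones were flushed, mononuclear cells were enriched on a gradient, unattached cells were removed, and the cultures were frozen at passage 2 before confluence. The remaining arrays served as a reference for direction: 4 from infants of 6, 6, 3 and 5 months and 3 from adults of 7, 7 and 8 years. Infant and adult marrow was aspirated, so that age and the way of collection cannot be told apart between those groups and the 4 arrays described. The labels do not say that the arrays of a stage came from separate animals. The p-values of the fit therefore measured the spread between cultures within a stage, pooled over all 11 arrays.

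Mesenchymal stem cells of marrow are adherent stromal cells that can form bone, cartilage and fat cells, and that in the marrow support blood formation. Around birth, long bones lengthen rapidly and their marrow is still being built, and proteins such as HMGA1, HMGA2 and the IGF2 messenger RNA-binding proteins mark many fetal tissues. The immediate early genes (FOS, EGR1, the NR4A receptors and others) are regulators that cells switch on within minutes of serum or another stimulus. The comparison asks which genes differ between marrow cultures from before and just after birth, with 2 cultures per stage. Each SE below pools the spread within all stages, infant and adult arrays included. It is therefore not the spread of the GD120 and newborn pairs alone.

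Across all 22215 probe sets (sets of probes that read 1 transcript), the newborn and GD120 arrays were close, and no gene passed the test over all genes. Limma, with 1 mean per stage over the 11 arrays, called 0 probe sets (0%) at a Benjamini-Hochberg adjusted p under 0.05, and the smallest adjusted p was 1. At an unadjusted p under 0.05 it gave 402 probe sets (1.81%), of which 188 (0.846%) were higher and 214 (0.963%) lower in newborn arrays. Without any difference a share of about 0.05 would have such a p, so this count is no excess. The unadjusted p-values given below have to be read against that. With 2 arrays against 2, an exact two-sided permutation test of a single value cannot go below p = 0.333. Sizes and agreement between arrays are therefore described, and for a gene the separation is the smallest of its 4 newborn minus GD120 differences where all 4 have 1 sign. Left out in turn, newborn 1 was the only one of the 4 arrays whose loss gave calls: 2 probe sets then passed in limma, which assumes that newborn 2 alone varies like the other groups. They were probe sets of NR4A3 (difference 1.87) and of CDH6, a cadherin (-1.52), each 1 of several for its gene. The other NR4A3 probe sets moved little: 6.98 and 7.07 in GD120 arrays against 7.15 in newborn 2, and 7.17 and 7.29 against 7.29.

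The mean difference between stages on the log2 scale had an SD of 0.165 over probe sets and a median of -0.0052. Only 214 probe sets differed by at least 0.5 in the stage means, and 13 by at least 1 (2-fold), 11 of them higher and 2 lower in newborn arrays. For 6407 probe sets (28.8%) the 2 stages did not overlap at all, but mostly by small amounts. With 2 arrays against 2 and no difference between stages, a share of about 0.333 would show no overlap. That is the smallest p of the exact two-sided permutation test given above. The share of 28.8% is therefore no excess. No probe set (0%) was separated by at least 1. By at least 0.5, 3 probe sets were higher (0.0135%) and 3 lower (0.0135%) in newborn arrays. When each of 11963 genes was read by 1 probe set, both newborn arrays lay above both GD120 arrays for 1620 genes (13.5%) and below them for 1818 (15.2%), and each count of separated genes below stands against these shares.

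Among the 4 arrays, the newborn pair was the less alike pair of its stage. GD120 1 and GD120 2 correlated at 0.977 and differed at least 2-fold at 23 probe sets. Newborn 1 and newborn 2 correlated at 0.970 and differed at least 2-fold at 109, of which 35 were higher in newborn 1 and 74 in newborn 2. Newborn 1 was closer to both GD120 arrays than to the other newborn array: it correlated at 0.983 with GD120 2, where 1 probe set differed 2-fold, and at 0.975 with GD120 1, where 20 did. Newborn 2 differed 2-fold from GD120 1 at 173 probe sets and from GD120 2 at 104. From infants 1, 2, 3 and 4 it differed at 248, 187, 47 and 56, so infant arrays lay both farther and nearer than the GD120 arrays. Median intensities of the 4 arrays lay between 165 and 168, and the number of arrays limits the precision.

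**Figure D1:**
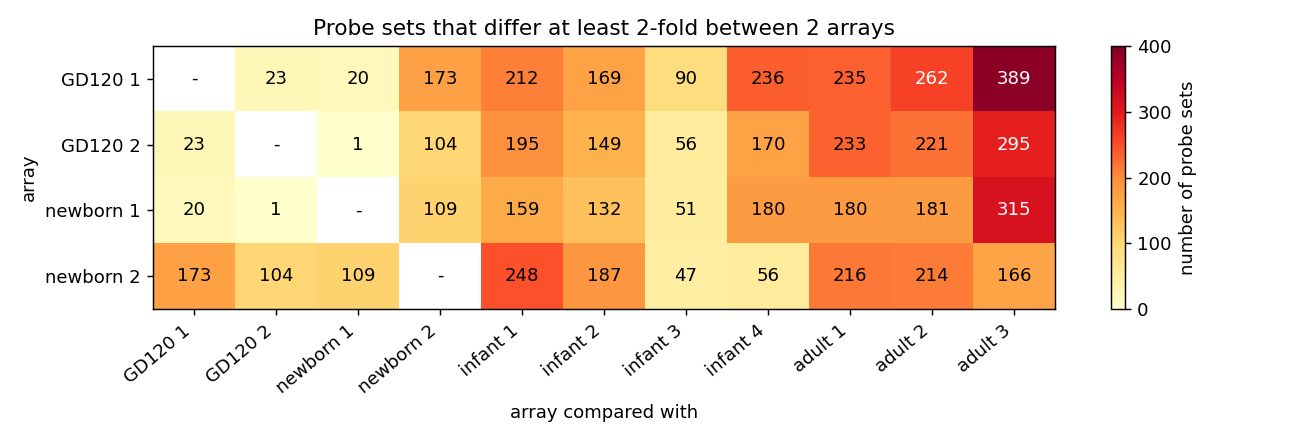
Number of the 22215 probe sets that differ at least 2-fold between 2 arrays, with the 4 GD120 and newborn arrays as rows and all 11 arrays as columns; darker cells hold more probe sets. Newborn 1 and GD120 2 share the lowest count, 1. Newborn 2 stands 104 to 173 probe sets from the GD120 arrays, 248 and 187 from infants 1 and 2, and 47 and 56 from infants 3 and 4.

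Surface proteins that define marrow stromal cells were read first, to check the labelled cell type. ENG, the endoglin receptor, read 9.21 and 9.03 in GD120 and 9.20 and 8.93 in newborn arrays on the log2 intensity scale, and THY1 read 8.33, 8.47, 8.40 and 8.28 in the same order, while 2 dimmer THY1 probe sets gave -0.33 and -0.41, both separated. CD44, the hyaluronan receptor, read 9.82 and 9.86 against 9.75 and 9.34, a difference of -0.30 (SE 0.15). NT5E lay between 6.70 and 7.04, under the median over all probe sets, 7.38, so its probe set is dim here. Of blood cell genes, PTPRC, the pan-leukocyte phosphatase, read 7.88 and 7.72 against 7.80 and 7.93, and HBB, a globin, 7.91 and 7.87 against 7.88 and 8.10, without separation. The other PTPRC probe sets were dim as well, at 6.71 to 7.17 in the 4 arrays. CD14, the monocyte receptor, was at 7.42 and 7.54 in GD120 and at 7.09 and 7.04 in newborn arrays. Of 20 leukocyte and macrophage markers measured, 9 lay above the median level in all 4 arrays, and the log2 of their summed intensity was 11.92 to 11.95 in GD120 and 11.84 to 11.86 in newborn arrays. By the mean of all 11 arrays 10 of the 20 lay above that level, beside 7121 of all 11963 genes. Both newborn arrays lay below for 5 (25.0%, beside 15.2% of all genes) and above for 3 (15.0%, beside 13.5%). In RNA of a whole culture, fewer cells of a type and less RNA per cell cannot be told apart, and the part of these other cells in the results was not tested.

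The widest gap was that of FOSL2, an AP-1 subunit that pairs with JUN proteins to bind DNA. It read 8.17 and 8.25 in GD120 arrays and 9.11 and 9.30 in newborn arrays. The 2 stages were 0.86 apart at their nearest arrays, and both newborn values also lay above every infant array (7.36 to 8.17) and every adult array (7.74 to 8.16). The difference in means was 0.99 (SE 0.23, 1.99-fold), with an unadjusted limma p of 0.000918. Another FOSL2 probe set showed 8.30 and 8.14 against 8.47 and 8.41, and the third overlapped with a difference of -0.003.

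The other 11 genes with the widest separation upward had differences of 0.39 to 0.71. AP3S1, a subunit of the AP-3 adaptor that sorts cargo to lysosomes, read 9.26 and 9.36 in GD120 and 9.78 and 9.87 in newborn arrays (difference 0.51, SE 0.17). SEC23B, part of the coat that carries secretory cargo out of the endoplasmic reticulum, read 8.41 and 8.41 against 8.97 and 8.82 (0.48, SE 0.15). MYO5C, a myosin of vesicle transport, read 7.05 and 6.97 against 7.54 and 7.48 (0.50, SE 0.16). On the probe sets given for these 3 genes both newborn arrays exceeded every infant array as well, whose highest values were 9.62, 8.41 and 7.38. The other SEC23B probe sets overlapped between stages, with differences of 0.06 and 0.02. RAP2C, a small GTPase, had 7.23 and 7.50 against 7.86 and 7.87, with infants in between at 7.57 to 7.73, and another RAP2C probe set pointed the other way (-0.070).

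SSBP3, a cofactor of LIM-homeodomain factors, had 8.08 and 8.47 in GD120 and 8.94 and 9.03 in newborn arrays (0.71, SE 0.27). HMBOX1, a homeobox protein, read 7.51 and 7.59 against 8.08 and 8.09 (0.53, SE 0.21), inside the infant range of 7.38 to 8.26. NUPR1, a small nuclear protein induced by stress, read 9.46 and 9.56 against 9.97 and 10.21 (0.58, SE 0.24), and infants went higher still, from 10.02 to 10.78. ZFAND5, a ubiquitin-binding zinc finger protein, showed 9.91 and 9.97 against 10.35 and 10.59 (0.53, SE 0.19). GART, an enzyme of purine synthesis, read 7.65 and 7.71 against 8.16 and 8.08 (0.44, SE 0.19), although its other probe sets lay between -0.03 and 0.07.

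LAMA2, the laminin alpha 2 chain of basement membranes, read 7.70 and 7.88 in GD120 and 8.23 and 8.33 in newborn arrays (0.50, SE 0.25). Infant arrays lay at 8.35 to 9.08 and adult arrays at 8.58 to 9.33. On this probe set the GD120, newborn and infant arrays therefore followed each other in level without overlap. The other LAMA2 probe sets overlapped between GD120 and newborn arrays, with differences of 0.05, 0.09 and 0.23. FGF2, the basic fibroblast growth factor that stromal cells make and respond to, read 7.96 and 8.02 against 8.38 and 8.38 (0.39, SE 0.23), within the infant range of 8.08 to 8.84. Another FGF2 probe set overlapped, with a difference of 0.07.

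Downward, the widest gap belonged to GAP43, a membrane protein known from growing axons. It read 9.72 and 8.72 in GD120 arrays and 8.02 and 7.97 in newborn arrays. The newborn values sat within the infant range of 7.74 to 8.06, and the GD120 arrays lay above all other arrays but were 1 log2 unit apart from each other. The difference was -1.22 (SE 0.31), a 2.33-fold higher mean in GD120 arrays, with an unadjusted limma p of 0.00179. Another GAP43 probe set read 8.42 and 7.95 against 8.13 and 7.81 and overlapped, and the third was dim and level (0.001). Of 10 neural and glial markers measured, 7 were lower in the newborn mean and 3 had both newborn arrays below, and the log2 of their summed intensity was 12.07 to 12.23 in GD120 and 11.75 to 12.08 in newborn arrays; the part of such cells in the GAP43 values was not tested.

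PDGFRA, the alpha receptor for platelet-derived growth factor and a marker of mesenchymal progenitors, was tight in both stages. It read 10.07 and 10.12 in GD120 arrays and 9.55 and 9.46 in newborn arrays, a separation of 0.53. The mean was 1.51-fold higher in GD120 arrays (difference -0.59, SE 0.19). Both newborn values lay inside the infant range of 9.02 to 9.76, and adults read 8.72 to 9.0. A further PDGFRA probe set stood between 6.77 and 7.06 in the 4 arrays, below the median level, and gave 0.068, and the third gave -0.07. Its sister receptor PDGFRB overlapped, with 9.51 and 9.58 against 9.19 and 9.53.

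Of the 12 genes with the widest downward separation, 1 was in the mitosis and spindle list. That gene, CCNB2, the mitotic cyclin B2, read 9.20 and 8.88 in GD120 and 8.41 and 7.78 in newborn arrays (-0.94, SE 0.26). CDC25B, the phosphatase that activates the mitotic kinase, read 9.12 and 9.14 against 8.70 and 8.73 (-0.41, SE 0.16). KPNA2, an importin that is abundant in dividing cells, read 9.22 and 9.40 against 8.82 and 8.37 (-0.71, SE 0.29), and another KPNA2 probe set gave 8.23 and 8.43 against 7.76 and 7.45. In CDC25B both newborn arrays still exceeded every infant array (8.23 to 8.67), while in CCNB2 both lay at or below the highest infant array, 8.42.

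The others were of mixed function. MMP9, the gelatinase B protease, read 8.78 and 8.43 in GD120 and 8.02 and 7.55 in newborn arrays (-0.82, SE 0.27). CHKA, choline kinase, read 8.80 and 8.56 against 8.01 and 8.09 (-0.63, SE 0.27), and STOML1, a stomatin-like protein, 8.14 and 8.13 against 7.51 and 7.64 (-0.56, SE 0.14). These newborn values lay inside the infant ranges or next to them, with infants at 7.24 to 7.99 for MMP9, 7.91 to 8.23 for CHKA and 7.59 to 7.90 for STOML1. Another CHKA probe set overlapped between stages, with a difference of -0.07. CTRL, a chymotrypsin-like protease, MAP3K6, a stress kinase, AMMECR1 and LRCH4 had differences of -0.56, -0.51, -0.47 and -0.50, with SE of 0.23, 0.24, 0.13 and 0.28. For LRCH4 another pair of probe sets gave 0.043 and 0.068, the opposite sign.

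**Figure D2:**
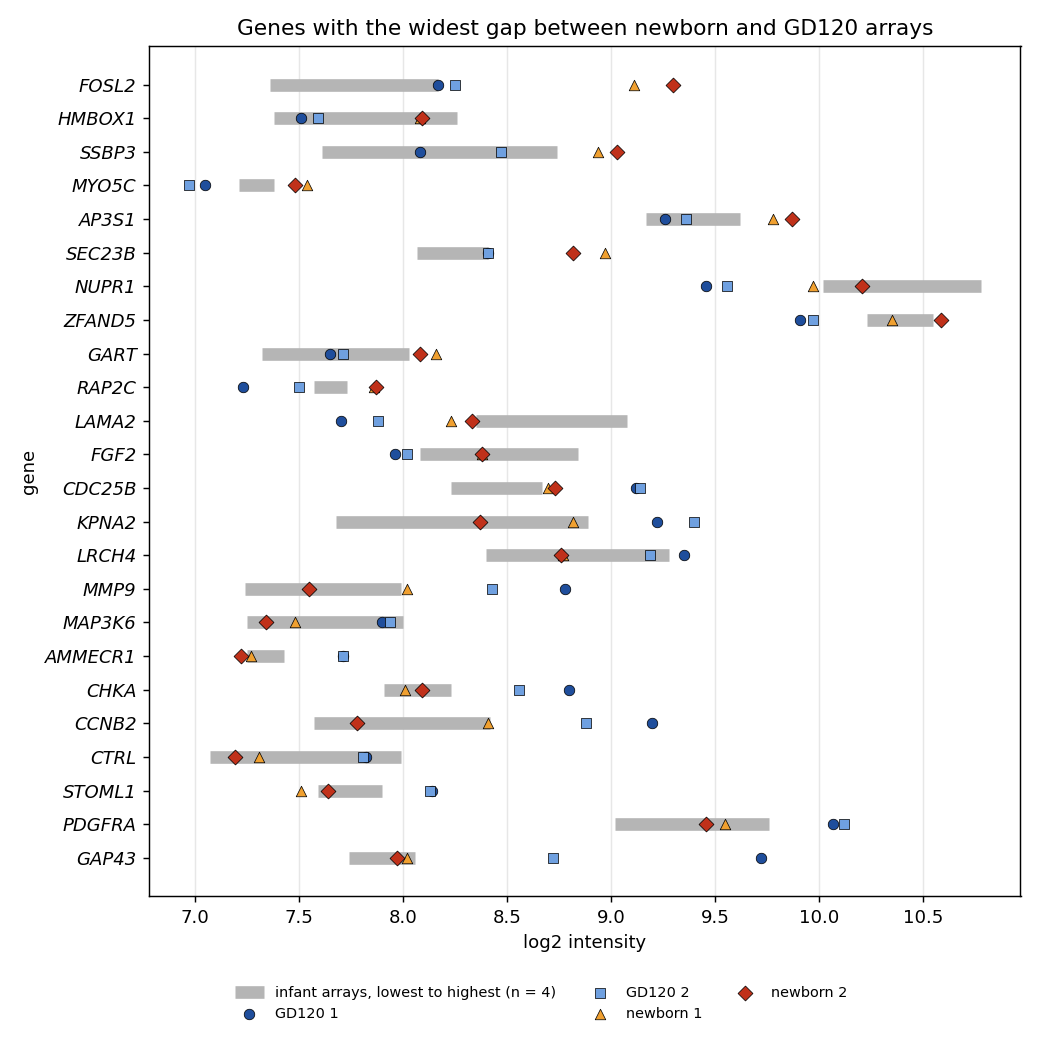
Log2 intensity of the 24 genes with the widest separation between stages, 12 in each direction, 1 row per gene; symbols are the 4 single arrays and grey bars run from the lowest to the highest of 4 infant arrays. FOSL2 shows the widest gap upward (8.25 to 9.11) and GAP43 the widest downward (8.72 to 8.02).

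Of the 6 probe sets separated by at least 0.5, those of FOSL2, GAP43 and PDGFRA have been given; the other 3 were picked after their values were seen, since they are not the probe set that stands for a gene. ADAM12, a metalloprotease of mesenchymal progenitors, read 7.05 and 6.89 in GD120 and 7.63 and 8.03 in newborn arrays on 1 probe set, with 6.96 to 7.24 in infant arrays. Its difference of 0.86 (SE 0.16) had the smallest unadjusted limma p of all probe sets, 0.000154. The other ADAM12 probe sets gave differences of -0.0086, 0.028 and -0.19. On 1 probe set GLIPR1 read 10.14 and 10.21 against 9.59 and 9.54 (-0.61, SE 0.19), but the brighter of its other probe sets gave 0.12. The last probe set has no gene name in the table used, and read 6.51 and 6.52 against 7.19 and 7.12.

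Genes of the mitosis and spindle list were lower in newborn than in GD120 means for 30 of 36 members, with a median difference of -0.20 beside -0.005 over all genes, and none was called. Both newborn arrays lay below both GD120 arrays for 8 members (22.2%, beside 15.2% of all genes) and above them for 0. The list split the newborn pair. In newborn 1 its median difference from the GD120 mean was 0.001, with 19 members above and 17 below, and in newborn 2 it was -0.34, with 32 of 36 below. These 2 values are also what the comparison gives without newborn 2 and without newborn 1. As a mean deviation from all 11 arrays the list stood at 0.32 and 0.33 in GD120 arrays, 0.32 in newborn 1 and -0.24 in newborn 2, while infants ranged from -0.34 to 0.20.

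Single members show the split. CDC20, the activator of the ubiquitin ligase that ends metaphase, read 10.14 and 10.11 in GD120 arrays and 10.21 and 8.12 in newborn arrays. CDK1, the mitotic kinase, read 9.32 and 9.28 against 9.28 and 8.20, and CCNB1, its cyclin partner, 8.58 and 8.93 against 8.67 and 7.79. In all 3, newborn 1 was at the GD120 level and newborn 2 was 0.88 to 2.09 lower than newborn 1. FOXM1, the transcription factor that drives mitotic genes, was separated in both arrays, with 8.20 and 7.93 against 7.55 and 7.00 (-0.79, SE 0.23). BIRC5, survivin, read 9.44 and 9.23 against 9.12 and 8.54, and CDCA8, its partner in the chromosomal passenger complex, 8.34 and 8.24 against 7.98 and 8.00.

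DNA replication genes followed the same layout, with 28 of 33 measured members lower in the newborn mean, 11 with both newborn arrays below (33.3%), 1 with both above, and a median difference of -0.16. Newborn 1 alone gave -0.003 and newborn 2 alone -0.33. CDT1, which licenses replication origins, was separated at 8.26 and 8.20 in GD120 and 7.82 and 7.59 in newborn arrays (-0.52, SE 0.16). RRM1, the large subunit of ribonucleotide reductase, read 8.26 and 8.18 against 7.99 and 7.60 (-0.43, SE 0.16). RRM2, the small subunit that is made in S phase, overlapped, with 10.64 and 11.33 against 11.14 and 8.96, and so did PCNA, the polymerase clamp, with 8.63 and 7.95 against 8.00 and 7.24. MCM5, a helicase subunit, read 8.94 and 9.20 against 8.92 and 7.65, so that newborn 1 touched the GD120 level and newborn 2 did not. Genes that brake the cycle gave a median of -0.005, the same as all genes; CDKN2A, the p16 inhibitor, read 8.64 and 8.38 against 8.24 and 8.22, and CDKN1B, the p27 inhibitor, 6.81 and 6.81 against 6.88 and 6.95.

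Immediate early genes had a median difference of 0.56, with 18 of 22 measured members higher in the newborn mean and 7 with both newborn arrays above (31.8%, beside 13.5% of all genes). None was called, and 4 had an unadjusted limma p under 0.05. With each gene read by the median over its probe sets the list gave 0.28. Here too the pair divided: newborn 1 alone gave a median of -0.076 and newborn 2 alone 1.10. The mean deviation of the list was -0.36 in both GD120 arrays, -0.42 in newborn 1 and 0.73 in newborn 2, above the infant range of -0.08 to 0.52. FOSL2 was the exception described above, high in both newborn arrays, and FOSL1, the related FRA-1 subunit, was lower in both, at 9.06 and 9.06 against 8.77 and 8.70.

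NR4A2, an orphan nuclear receptor, read 7.66 and 7.93 in GD120 arrays, 7.82 in newborn 1 and 10.80 in newborn 2. KLF4 read 7.77, 8.12, 8.29 and 10.51 in that order, and KLF10, an early target of TGF-beta that is not in the list, 7.14, 7.07, 7.15 and 9.46. In all 3, newborn 1 lay next to the GD120 arrays and newborn 2 more than 2 log2 units above newborn 1. Infants ran from 7.48 to 10.11 for NR4A2, 8.88 to 10.53 for KLF4 and 7.14 to 8.18 for KLF10. Newborn 2 thus lay inside the infant range for KLF4 and above it for NR4A2 and KLF10. NR4A3 read 8.32, 8.32, 8.41 and 10.19, and JUNB 8.21, 8.01, 8.17 and 9.87. The other NR4A3 probe sets were dimmer and gave stage differences of 0.07 and 0.06. FOS read 9.80 and 9.47 against 9.0 and 10.79, and EGR1 9.66 and 10.04 against 9.75 and 10.97, so that both overlapped, and all 4 infants lay above the GD120 arrays in each (11.33 to 11.97 for FOS and 10.93 to 11.64 for EGR1). JUN, the common partner of FOS proteins, did not share the pattern, with 8.62 and 9.49 against 8.98 and 9.10.

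The genes that differed most between the newborn arrays were also named without regard to lists. Of the 8 higher in newborn 2, 4 were in the immediate early list, and of the 8 higher in newborn 1, 4 were in the mitosis and spindle list, 2 in the DNA replication list and 1 in the oncofetal list. These lists held 22, 36, 33 and 9 of the 11963 genes. The same 2 arrays showed the split above, and the lists were chosen with earlier results known. The counts are therefore no separate support for the split. Newborn 2 exceeded newborn 1 by 3.00 log2 units in HES1, the transcriptional repressor downstream of Notch (8.13 and 11.13, with 9.24 and 8.59 in GD120 arrays and 9.77 to 11.32 in infants). It exceeded it by 2.53 in ZFP36, which destabilises messenger RNA of inflammatory genes, by 2.15 in the cyclin CCNL1, by 1.89 in the clock-linked repressor BHLHE40 and by 1.85 in NR4A1. In the other direction newborn 1 exceeded newborn 2 4.54-fold in RRM2, 4.27-fold in CDC20, 3.21-fold in PTTG1 (securin), 3.07-fold in PRC1, which bundles spindle microtubules, and 2.80-fold in UBE2C. H2AX, a histone variant, and HMGA2 were 2.41-fold and 2.45-fold higher in newborn 1, and MCM5 2.41-fold.

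**Figure D3:**
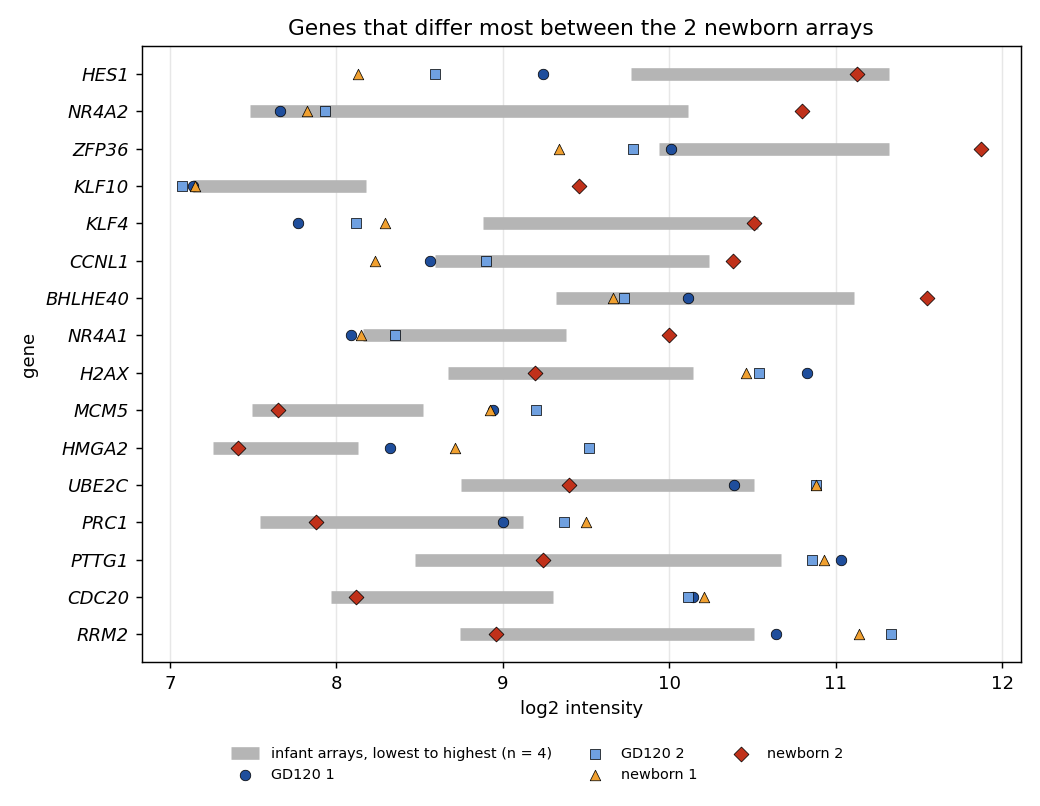
Log2 intensity of the 16 genes that differ most between the 2 newborn arrays, 8 in each direction, 1 row per gene; symbols are single arrays and grey bars span the 4 infant arrays. HES1 runs from 8.13 in newborn 1 to 11.13 in newborn 2, and CDC20 from 10.21 to 8.12, with newborn 1 near the GD120 arrays in most rows.

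Of the 13 probe sets with a stage difference of at least 1, the 11 higher ones had their largest value of the 4 arrays in newborn 2, and the 2 lower ones were GAP43 and a probe set that H2AC18 and H2AC19 share. IL6, the inflammatory cytokine, read 8.67 and 9.60 in GD120 and 9.74 and 10.88 in newborn arrays (1.17, SE 0.70), and GADD45B, a stress gene, 7.97 and 8.29 against 8.59 and 10.38 (1.35, SE 0.53) on 1 of its probe sets. TIPARP, a target of the aryl hydrocarbon receptor, read 8.69 and 8.98 against 9.06 and 10.62. The probe sets of ACAN, the cartilage proteoglycan aggrecan, gave 1.17, 1.19 and 1.33, with SE of 1.01, 0.87 and 0.97. The brightest ACAN probe set read 9.88 and 10.98 against 10.92 and 12.59, and adults alone ran from 8.52 to 12.51. LCN2, a secreted lipocalin, read 8.57 and 9.38 against 9.14 and 10.82. These genes were picked for their size of difference after the values were seen, and in each the larger share lay in newborn 2.

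Contractile genes had a median difference of 0.28, with 20 of 22 measured members higher in the newborn mean, 6 with both newborn arrays above (27.3%) and 0 below. None was called, and 3 had an unadjusted limma p under 0.05. Newborn 1 alone gave 0.047 and newborn 2 alone 0.38. Without GD120 1 the median was 0.116 and without GD120 2 it was 0.47. GD120 1 stood lowest at a mean deviation of -0.47, whereas GD120 2 at -0.18 and newborn 1 at -0.19 were level, newborn 2 was at 0.12 and infants lay between -0.12 and 0.15. ACTA2, smooth muscle actin, shows it: 10.79 and 11.84 in GD120 arrays, 11.80 and 12.76 in newborn arrays, and 12.50 to 12.59 in infants (difference 0.97, SE 0.32).

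TPM2, a tropomyosin, was separated, with 10.35 and 10.58 in GD120 and 10.84 and 10.84 in newborn arrays (0.38, SE 0.18). TPM1 read 10.93 and 11.09 against 11.35 and 11.38, and ACTN1, the actin cross-linker alpha-actinin, 11.26 and 11.50 against 11.60 and 11.74. These 3 had both newborn arrays inside or just above the infant ranges of 10.78 to 11.29, 11.01 to 12.17 and 11.42 to 11.66. MYL9, the regulatory myosin light chain, read 8.20 and 8.53 against 8.60 and 9.09 (0.48, SE 0.17). TAGLN, transgelin, overlapped at 13.15 and 13.47 against 13.36 and 14.14, as did CNN1, calponin, at 8.18 and 8.00 against 8.09 and 8.01.

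Collagen genes gave a median of 0.046 for the stage means, which joins opposite values: -0.12 in newborn 1, with 17 of 21 members below the GD120 mean, and 0.33 in newborn 2, with 17 of 21 above. COL1A1 read 14.51 and 14.85 in GD120 and 14.51 and 15.12 in newborn arrays, and COL3A1 13.42 and 12.86 against 12.35 and 13.64, so newborn 1 was the lowest and newborn 2 the highest of the 4 for COL3A1. Among other matrix genes, ELN, elastin, ranged as widely within GD120 (7.59 and 9.30) as between stages (9.31 and 8.63 in newborn arrays). Of enzymes that act on the matrix, MMP11 read 9.01 and 9.21 against 9.28 and 10.03 (0.55, SE 0.23), and TIMP3, an inhibitor of such proteases, 9.87 and 10.47 against 10.55 and 11.02 (0.61, SE 0.24). Further MMP11 probe sets gave 0.27 and -0.15.

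Genes known from fetal tissue had no common direction. The oncofetal list had a median of -0.008 over 9 measured members, 3 higher and 6 lower, with 1 separated each way. HMGA1, a chromatin protein high in fetal tissue, was separated downward, with 10.99 and 10.40 in GD120 and 10.09 and 9.78 in newborn arrays (-0.76, SE 0.21). Both newborn values of HMGA1 lay inside the infant range of 9.76 to 10.24, and adults read 8.98 to 9.16. A dimmer HMGA1 probe set was flat (0.005). HMGA2 overlapped, with 8.32 and 9.52 against 8.71 and 7.41, and only newborn 2 reached the infant range of 7.26 to 8.13. IGF2BP3 read 7.72 and 7.44 against 7.30 and 7.67, both stages lying above the highest infant value of 7.08, and IGF2BP2 8.84 and 8.78 against 9.19 and 8.83. LIN28A lay at 6.87 to 6.88, below the median level.

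Imprinted growth genes had a median of 0.05 over 17 members (-0.007 without newborn 2), with 2 separated each way. MEST, a maternally imprinted gene of growing mesoderm, read 10.42 and 10.30 in GD120 and 10.05 and 9.09 in newborn arrays (-0.79, SE 0.52), with infants at 8.50 to 9.61. MEG3, a maternally expressed noncoding RNA, overlapped at 8.23 and 8.52 against 8.08 and 8.28, all above the infant maximum of 7.76. PLAGL1 read 7.45 and 8.05 against 7.71 and 8.17, and DLK1 lay at 6.55 to 7.13, below the median level. In the IGF system 13 of 16 measured members were higher in the newborn mean (median 0.12), 2 with both arrays above. Newborn 1 alone gave 0.004, with 8 members above the GD120 mean and 7 below, and newborn 2 alone 0.17, with 14 above; without GD120 1 the median was 0.068, and over all probe sets of a gene 0.066. IRS2, an adaptor of the insulin and IGF1 receptors, read 8.84 and 8.75 against 9.10 and 10.36 (0.93, SE 0.41), and IGFBP5, an abundant binding protein, 12.34 and 12.83 against 12.70 and 14.03.

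Glycolysis genes were lower in the newborn mean for 14 of 18 members, with a median of -0.17, and both newborn arrays lay below for 6 (33.3%) and above for 0. Newborn 1 alone gave -0.097 and newborn 2 alone -0.305. GAPDH read 14.31 and 14.08 in GD120 and 13.85 and 13.42 in newborn arrays (-0.56, SE 0.23), and infants lay at 13.47 to 13.85. PGAM1, phosphoglycerate mutase, read 10.61 and 10.50 against 10.15 and 10.09 (-0.44, SE 0.17), and ALDOC, an aldolase, 8.14 and 8.00 against 7.65 and 7.65 (-0.42, SE 0.19). LDHA, which makes lactate, and PGK1 overlapped, at 10.87 and 10.68 against 10.87 and 10.49 and at 10.71 and 10.38 against 10.67 and 10.05.

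Respiratory chain genes had 25 of 31 members lower and a median of -0.11, with 0.011 in newborn 1 and -0.24 in newborn 2. Cytosolic ribosomal protein genes differed in the other array: their median was -0.125 in newborn 1, with 30 of 38 below the GD120 mean, and 0.011 in newborn 2, and over both it was -0.076, or 0.006 after a renewed quantile normalisation. Their share separated downward was 28.9%, with RPL12 at 13.82 and 13.59 against 13.34 and 13.27. Of lipid genes, ELOVL6, a fatty acid elongase, read 8.50 and 8.41 against 8.09 and 7.42 (-0.70, SE 0.19), while a dimmer probe set gave 0.085, and the list of sterol and fatty acid synthesis had a median of -0.065, which was 0.063 without GD120 2. Metallothionein genes, 8 measured, gave -0.24, with 1 separated each way. That median rested on GD120 1: it was 0.022 without GD120 1 and -0.50 without GD120 2, and -0.061 without newborn 2.

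**Figure D4:**
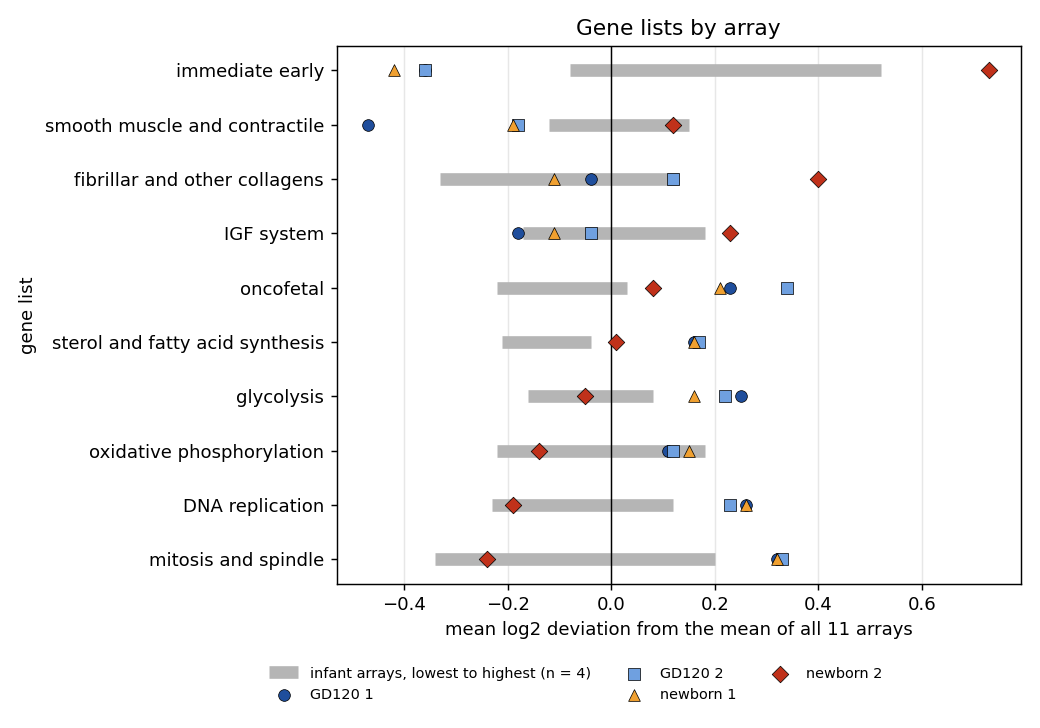
Mean log2 deviation of 10 gene lists from the mean of all 11 arrays; symbols are the 4 GD120 and newborn arrays and grey bars run from the lowest to the highest infant array. Newborn 1 lies with the GD120 arrays for mitosis (0.32 against 0.32 and 0.33) and immediate early genes (-0.42 against -0.36), and newborn 2 lies apart in both (-0.24 and 0.73).

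Most signalling and lineage lists lay near the median of all genes. The BMP and ID list had a median of 0.10 (-0.005 without newborn 2). Of its 21 measured members 13 were higher in the newborn mean, and 3 were separated each way. FST, follistatin, an inhibitor of activin, read 10.59 and 9.93 in GD120 and 9.60 and 9.45 in newborn arrays (-0.73, SE 0.35). BMPR2, the type 2 receptor for bone morphogenetic proteins, read 7.73 and 7.72 against 7.33 and 7.35 (-0.38, SE 0.16), below every infant array (7.46 to 7.91). Another BMPR2 probe set overlapped, at 7.44 and 7.18 against 7.01 and 7.44. ID2, an inhibitor of basic helix-loop-helix factors, gave opposite signs on its probe sets, 0.40 and -0.26 (both separated), so that its direction is unsettled. Of WNT genes, the receptor FZD1 read 7.49 and 7.82 against 8.05 and 8.04 (0.38, SE 0.16), another of its probe sets gave -0.13, and the ligand WNT5A overlapped at 8.86 and 9.55 against 8.83 and 9.77.

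Bone, cartilage and limb genes differed little in the medians: -0.009 over 17 osteoblast genes, 0.016 over 22 cartilage genes and 0.002 over 32 limb and mesenchymal transcription factors. RUNX2, the master factor of osteoblasts, read 7.58 and 7.42 against 7.48 and 7.24, and SOX9, that of cartilage, 7.72 and 7.38 against 7.78 and 7.12, both overlapping. CHI3L1, a secreted chitinase-like protein, read 9.16 and 9.77 against 9.83 and 10.01 (0.45, SE 0.23), below every infant array (10.89 to 11.44) and adult array (12.39 to 12.73), while its other probe sets gave 0.82, separated by 0.32, and -0.066. In the adipocyte list, with a median of -0.069, PPARG, its master factor, was at 8.38 and 7.89 in GD120 and at 7.43 and 7.84 in newborn arrays, and FABP5, a fatty acid carrier, at 9.82 and 9.59 against 9.44 and 8.82 (-0.58, SE 0.25). Among HOX genes, which record position along the body, HOXD10 read 7.94 and 7.54 against 7.34 and 7.23 (-0.45, SE 0.20), and the list median was -0.051 over 21 genes.

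**Figure D5:**
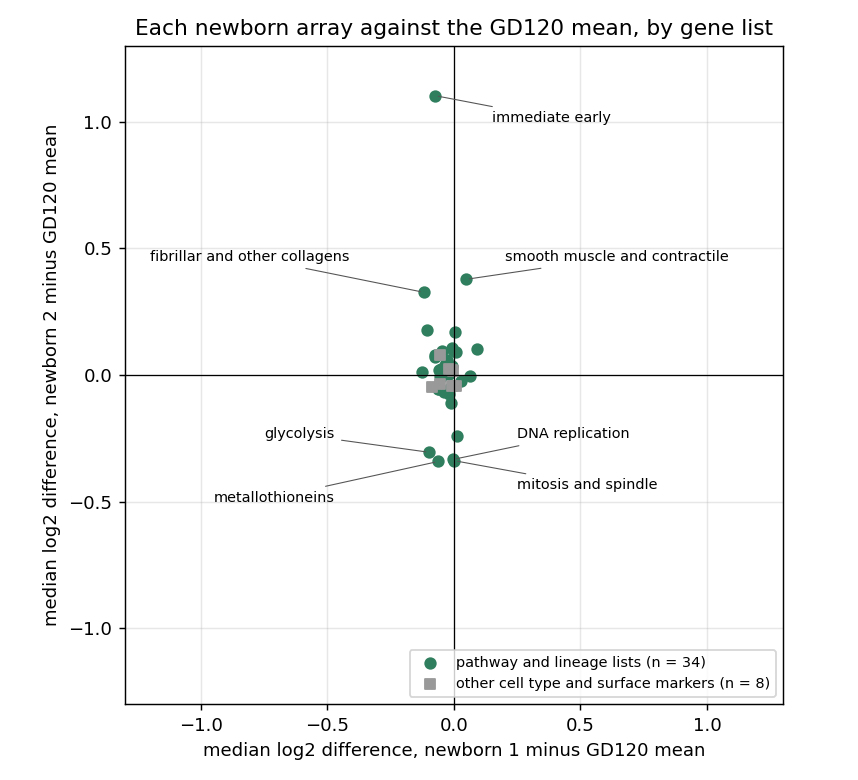
Median log2 difference from the GD120 mean of each of 42 gene lists, newborn 1 on the horizontal and newborn 2 on the vertical axis; both axes share the same GD120 mean. All lists fall within a narrow band for newborn 1 (-0.125 to 0.09), and immediate early genes reach 1.10 in newborn 2 while mitosis genes reach -0.34.

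Stress and secretion lists held small differences. Of 23 hypoxia targets, 5 had both newborn arrays above (21.7%) and 0 below, with a median of 0.045, or -0.002 without newborn 1. NDRG1, induced by low oxygen, read 10.05 and 10.14 in GD120 and 10.35 and 10.80 in newborn arrays (0.49, SE 0.19), whereas VEGFA, the angiogenic factor, overlapped at 11.66 and 11.78 against 11.10 and 12.02, and ADM, adrenomedullin, at 8.88 and 8.94 against 8.90 and 7.95. Of 17 genes for the processing of collagen, 6 had both newborn arrays above (35.3%) and 2 below, and of 25 heat shock and unfolded protein genes 1 did and 7 lay below (28.0%), with medians of 0.10 (0.027 without GD120 1) and -0.067 (-0.107 without GD120 1). The lists of interferon response, secreted inflammatory factors and NRF2 targets had medians of -0.031, -0.006 and -0.048, and that of complement and MHC 0.08, which joined -0.105 in newborn 1 and 0.18 in newborn 2. TSC22D3, a target of glucocorticoids, read 8.64 and 8.33 against 8.41 and 9.61, and FKBP5, another, 7.41 and 7.08 against 7.02 and 6.69, so that these 2 had opposite signs.

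As a reference that shares no array with this comparison, the difference of adult minus infant means was set against newborn minus GD120 over 11963 genes, which are not independent replicates. The Pearson correlation across genes was 0.094. That between adult minus infant and newborn 2 minus newborn 1 was 0.013.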

How the data were processed

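The deposited values are an intensity per probe set, made by the authors with RMA (version not given in the sources used here), per the submitters' processing notes. That method subtracts background, evens out overall brightness between arrays and combines the probes of a set. Log2 of the deposited intensity was taken, with no filter. Human probes read monkey RNA, so a level depends on the probe set as well as on the RNA. Levels of different probe sets were still compared to pick 1 probe set per gene and to call probe sets dim or bright. They were also summed for the markers of other cell types. Groups came from the source names, and 0 value columns lacked a sample. Limma 3.58.1 in R 4.3.3 (lmFit, eBayes) fitted 1 mean per stage over 11 arrays, two-sided, with Benjamini-Hochberg adjustment over 22215 probe sets; the fit was tested on simulated data. Of these, 19065 had 1 symbol, 1043 several and 2107 none, and genes were named only from the first kind. A gene was read by its probe set of highest mean. Named were the 12 genes of widest separation in each direction above the median level, up to 3 members of widest separation and the defining members per described list, identity genes, and the 8 genes of largest difference between newborn arrays each way. The 42 lists (968 genes, 846 measured) and the members were chosen with earlier results of these data known. They were described by counts and medians, without a test. Alternatives were other scalings, a pseudocount of 100, bright probe sets only, other limma settings, other probe sets of a gene, and leaving out each array and the adult arrays.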

Additional observations from a re-analysis of the deposited data

Results flagged for a closer look

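GAP43 in the infant arrays held 1 value apart from the others: 8.01, 8.06, 8.01 and 7.74 on the log2 scale, where the gap between the lowest value and its neighbour takes a share of 0.84 of the range, above Dixon's 95% limit for 4 samples. It was the 1 item past that limit of 47 tested, which were named genes and means of gene lists, and chance passes about 1 in 20. All 4 infant values lie below both GD120 arrays, and the difference between newborn and GD120 arrays does not use them except for the pooled spread.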

How the results depend on the processing

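No paired analysis was possible because the newborn arrays carry title numbers 3 and 4 and the GD120 arrays 1 and 2, so the stages share no number. The count called by limma was 0 under every alternative except without newborn 1, and 0 to 2 over the arrays left out. At an unadjusted p under 0.05 the count of 402 ranged from 202 to 725 with an array left out, and was 191 among bright probe sets, 747 from the 4 arrays alone and 975 with array weights. The 6407 probe sets without overlap became 13054 to 14609 with an array left out, as fewer differences then have to share a sign, and 3173 among bright ones. Separation by at least 0.5 went from 3 higher to 8 to 249 and from 3 lower to 36 to 243, and by at least 1 from 0 to 0 to 72. With 100 added before log2, which shrinks dim differences, 1 was higher and 1 lower, and among bright probe sets 1 was higher.

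List medians with an array left out ranged from -0.076 to 1.10 for immediate early genes, 0.047 to 0.47 for contractile genes, -0.12 to 0.33 for collagens, -0.305 to -0.097 for glycolysis, -0.34 to 0.001 for mitosis and -0.33 to -0.003 for DNA replication. Another probe set of a separated gene turned the sign for AIF1 (0.086), CADM1 (-0.076), CD44 (0.039), CHI3L1 (-0.066), COL5A3 (0.132), ELOVL6 (0.085), FGF18 (0.105), FOSL2 (-0.003), FRZB (-0.038), FZD1 (-0.132), GAP43 (0.001), GART (-0.027), HMGA1 (0.005), ID2 (-0.265), LRCH4 (0.043 and 0.068), MAOA (-0.129), MMP11 (-0.152), MYH11 (-0.211), PDGFRA (0.068), RAP2C (-0.07) and SQLE (-0.103); the cause was not tested. No other alternative turned the sign of a separated named gene. Leaving out an array could not do so, because all 4 differences of a separated gene share 1 sign by definition. That part is therefore no check on these genes. Where the sign held, other probe sets could still overlap between stages, as for LAMA2, SEC23B, CHKA, FGF2 and BMPR2. The 4 arrays limit every value, and dim probe sets near the median level can hide a difference.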
